A study of Homo sapiens with 6 samples.

Results

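Aminoacyl-tRNA synthetases join each amino acid to its transfer RNA, the step that sets the genetic code before the ribosome reads it. Separate nuclear genes encode the cytosolic and the mitochondrial enzymes for most amino acids, and several cytosolic enzymes sit together in the multisynthetase complex with scaffold proteins. Many cytosolic synthetase genes are known targets of ATF4, the transcription factor of the amino acid response. The members were the protein coding genes whose symbol is 1 letter followed by ARS, with an optional 1 or 2 at the end, together with EPRS, FARSA, FARSB, TARSL2, AIMP1 and AIMP2. They numbered 39 of the 24526 genes in the deposited table. They were split into 23 cytosolic genes, among them the scaffold genes AIMP1 and AIMP2 and the threonyl enzyme gene TARSL2, and 16 mitochondrial genes. GARS and KARS, which each encode both the cytosolic and the mitochondrial enzyme, were counted with the cytosolic genes. VARS2 was not analysed here.

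RNA had been sequenced from WM266.4, an established human melanoma line, 48 h after transfection. The 3 neg.si libraries came from cells given negative control siRNA and the 3 RIPK4.si libraries from cells given siRNA against the kinase gene RIPK4. An siRNA guides the cell's own machinery to destroy transcripts that match it. The study's methods name a single siRNA against RIPK4. Effects of lower RIPK4 and effects of that siRNA on other transcripts cannot be told apart here. Library depth, as the total count over genes, was 31688095, 30539087 and 30056850 for the controls (replicates 1 to 3). For RIPK4.si it was 28464057, 30751441 and 30772817. The study's methods call the 3 samples of each condition biological replicates, and its heatmap legends speak of 3 independent experiments.

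RIPK4 (ENSG00000183421.12, chr21:41739369-41767089) stood at 85.8, 76.5 and 54.7 CPM, the counts scaled to a common library size of 1000000, in neg.si and at 19.9, 16.7 and 21.5 CPM in RIPK4.si. Each RIPK4.si library lay below each neg.si library, as the labels require. RIPK4 fell by 1.90 on the log2 scale (SE 0.203, edgeR quasi-likelihood adjusted p = 0.0102). Its adjusted p was 0.106 without neg.si replicate 2 and 0.094, 0.0622 and 0.0725 without RIPK4.si replicates 1, 2 and 3. With neg.si replicate 3 left out the log2 fold change was -2.06 and the adjusted p 0.000476.

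The melanocyte genes marked the line. All 8 of PMEL, MLANA, TYR, TYRP1, DCT, MITF, SOX10 and S100B were expressed, with TYR the most abundant. Their summed level was 4012, 3773 and 3573 CPM in neg.si and 2674, 2759 and 2635 CPM in RIPK4.si, and the groups did not overlap. The genes did not move as one. PMEL fell by 1.30 on the log2 scale (edgeR adjusted p = 0.0111). Its adjusted p was 0.129 without neg.si replicate 2 and 0.0992, 0.0738 and 0.121 with RIPK4.si replicates 1, 2 and 3 left out in turn. TYR and DCT had log2 fold changes of -0.57 and -0.73 with no overlap (edgeR adjusted p = 0.148 and 0.0854). DESeq2 called both (adjusted p = 0.0407 and 0.00352), and edgeR with each library's GC trend removed called DCT (adjusted p = 0.0207). S100B had -0.48 with overlap, and -0.29 without neg.si replicate 1. SOX10 (-0.15), MITF (0.04), MLANA (0.06) and TYRP1 (0.36) overlapped between groups. The SOX10 value ran from -0.29 to -0.01 with each library left out in turn. Of markers of keratinocytes, leukocytes, endothelium and red cells, 7 were in the table. They summed to between 1.42 and 3.15 CPM per library, and PECAM1 was the highest at up to 1.07 CPM. KRT5, KRT14 and CD3E were at 0 in at least 1 library. In bulk RNA, fewer cells with a transcript and less of it per cell cannot be told apart. The part of the lower summed level in the values below was not tested.

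The control libraries differed among themselves. A principal component analysis of log2 CPM placed neg.si replicate 3 at 56.13 on its leading axis (44.9% of variance), with the other libraries between -41.46 and 10.55. The rank correlation of a gene's deviation with its GC content was 0.555 in neg.si replicate 1 and -0.547 in neg.si replicate 3, across genes, which are not independent replicates. Among the 39 members, the difference between these libraries fell with GC content (rank correlation -0.67), as it did over 16239 genes (-0.63). CARS2, FARSA and VARS were lower in neg.si replicate 3 than in replicate 1 by log2 differences of -1.01, -0.96 and -0.81. For most genes given in full, the value without neg.si replicate 3 follows the main one.

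**Figure D1:**
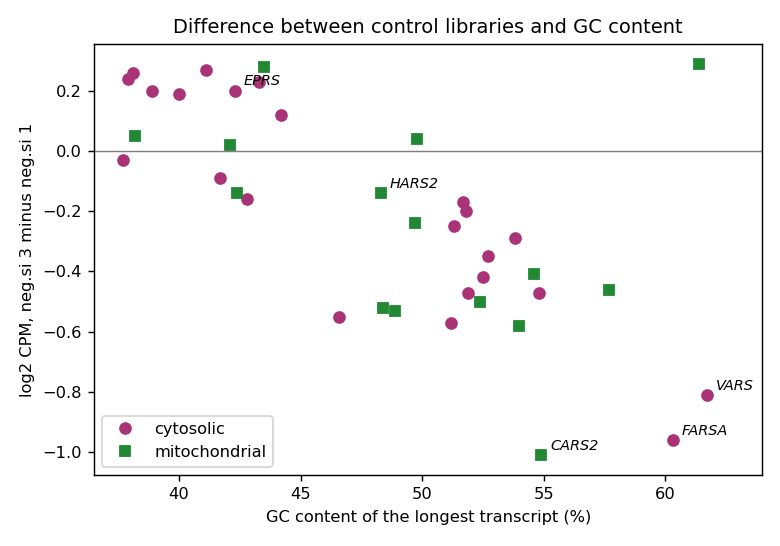
Log2 CPM of neg.si replicate 3 minus neg.si replicate 1 (vertical axis) against GC content of the longest transcript in percent (horizontal axis), 1 point per gene reported, circles cytosolic and squares mitochondrial. CARS2 (-1.01, GC 54.9%), FARSA (-0.96, GC 60.3%) and VARS (-0.81, GC 61.7%) lie lowest. QARS, at a GC content of 54.8%, lies at -0.47, and SARS2, at 61.4%, lies at 0.29.

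Across the family no member passed the edgeR test. All 39 members passed the filter on low counts, and 0 had an edgeR adjusted p under 0.05, where 0.767% of the 16297 genes tested did. At an unadjusted p under 0.05, 3 members were higher in RIPK4.si, beside 4.85% of all genes, and 1 was lower, beside 6.0%. DESeq2 called 1 member, CARS2, where it called 2.91% of genes, and edgeR with each library's GC trend removed called 2, CARS2 and VARS, where it called 3.27%. The CPM of the groups did not overlap for 9 members. Of these 6 were higher in RIPK4.si, 15.4% of the members beside 8.23% of all genes, and 3 were lower, 7.69% beside 9.4%.

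Cytosolic and mitochondrial members had like medians. The median log2 fold change was 0.05 over the 23 cytosolic genes and 0.04 over the 16 mitochondrial genes, against -0.02 over all genes tested. The cytosolic values ran from -0.43 to 0.69 with 15 above 0, and the mitochondrial values from -0.45 to 1.03 with 10 above 0. These are 65.2% and 62.5% of the classes, beside 46.6% of all genes tested. Without neg.si replicate 3 the medians were -0.01 and 0.02. With classes set by the last digit of the symbol alone they were 0.072 and 0.016. Summed over the class, cytosolic transcripts made up 3540, 3720 and 3290 CPM in neg.si and 3580, 4250 and 3620 CPM in RIPK4.si. The mitochondrial sums were 794, 850 and 804 CPM in neg.si and 854, 936 and 856 CPM in RIPK4.si. The cytosolic sums overlapped between groups, while the lowest mitochondrial sum of RIPK4.si stood just over the highest of neg.si. That sum follows its most abundant gene, IARS2, with a mean of 374 CPM in neg.si and 432 CPM in RIPK4.si. The CARS2 means were 25.4 and 51.9 CPM. Of the 16 mitochondrial genes, 6 had a log2 fold change below 0, so the sum does not speak for the class.

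**Figure D2:**
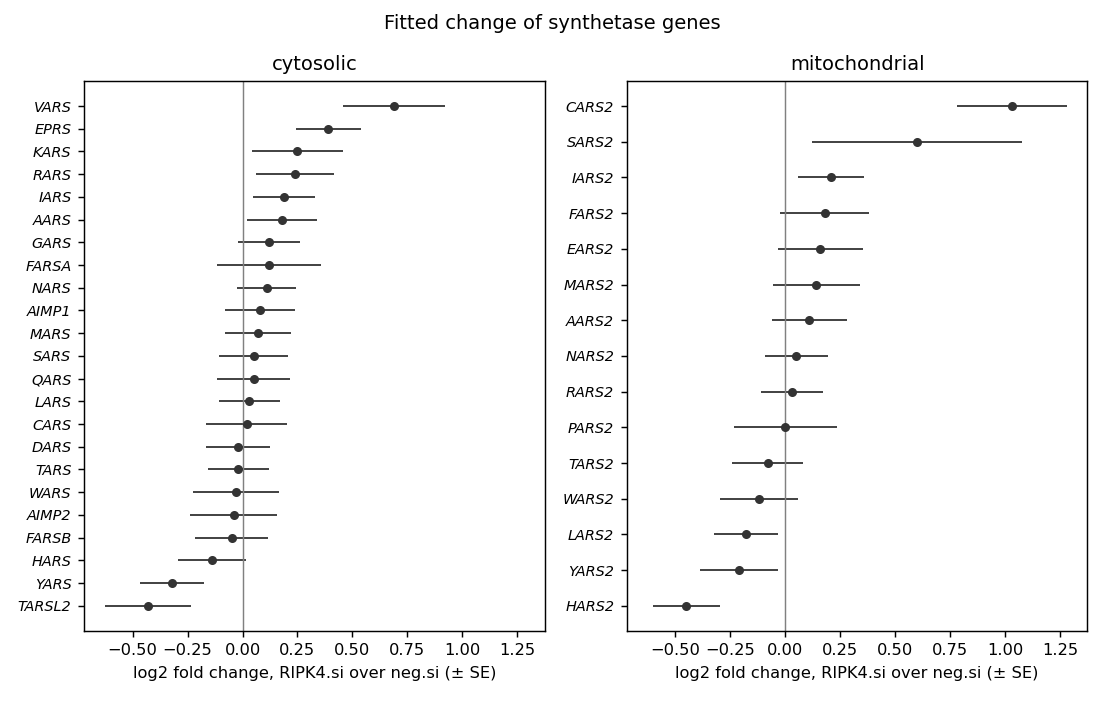
Log2 fold change of RIPK4.si over neg.si with its SE for the cytosolic (left) and mitochondrial (right) genes reported, ordered by value, from the edgeR fit of 3 against 3 libraries. Most points lie near 0, with CARS2 at 1.03 and VARS at 0.69 the highest of their classes and HARS2 at -0.45 and TARSL2 at -0.43 the lowest.

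CARS2, the mitochondrial cysteinyl-tRNA synthetase gene (ENSG00000134905.17, chr13:110641412-110713603), had the widest difference of the family. It measured 33.2, 26.7 and 16.5 CPM in neg.si and 47.1, 60.9 and 47.8 CPM in RIPK4.si. Each RIPK4.si library was above each neg.si library, and neg.si replicate 3 was the lowest. The fitted log2 fold change was 1.03 (SE 0.249), with an unadjusted p of 0.00237 and an edgeR adjusted p of 0.121. The adjusted p was 0.00713 by DESeq2 and 0.0205 with the GC trend removed, and it ran from 0.00713 to 0.424 over the alternatives. Without neg.si replicate 3 the log2 fold change was 0.80 with an edgeR adjusted p of 0.057.

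HARS2, which encodes the mitochondrial histidyl enzyme (ENSG00000112855.17, chr5:140691430-140699305), was the member with the lowest fitted value in the main fit. TARSL2 was close to it, and lay lower without neg.si replicate 1 (-0.45 against -0.38) and without RIPK4.si replicate 1 (-0.58 against -0.50). The HARS2 levels were 33.4, 29 and 30.3 CPM in neg.si and 24.3, 22.4 and 21.0 CPM in RIPK4.si. All 3 RIPK4.si libraries lay below the neg.si range. The log2 fold change was -0.45 (SE 0.152, edgeR adjusted p = 0.281), and with each library left out in turn it ran from -0.50 to -0.38 (-0.46 without neg.si replicate 3). HARS, the cytosolic counterpart, is transcribed from the other strand, and in RefSeq the start sites lie 85 bases apart on chromosome 5. The log2 fold change of HARS was -0.14 (SE 0.155), with overlapping groups.

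VARS, the valyl enzyme gene (ENSG00000204394.13, chr6:31777518-31795752), stood at 114, 96.6 and 64.9 CPM in neg.si and at 129, 184 and 130 CPM in RIPK4.si. The groups did not overlap, and RIPK4.si replicate 2 was the highest library. The log2 fold change was 0.69 (SE 0.231, edgeR adjusted p = 0.283). It was 0.49 without neg.si replicate 3, and the adjusted p was 0.0385 with the GC trend removed, with 0.0385 to 0.645 spanned by the alternatives.

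EPRS encodes the joint glutamyl and prolyl enzyme of the multisynthetase complex (ENSG00000136628.18, chr1:219968600-220046530). It measured 396, 434 and 455 CPM in neg.si and 549, 609 and 523 CPM in RIPK4.si. The neg.si libraries were all lower, and neg.si replicate 3 was the highest of them. The log2 fold change was 0.39 (SE 0.147, edgeR adjusted p = 0.352), and 0.44 without neg.si replicate 3.

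Both TARSL2 and YARS, a tyrosyl enzyme gene, had lower RIPK4.si levels. TARSL2 (ENSG00000185418.16) measured 9.59, 10.3 and 10.4 CPM in neg.si and 8.96, 6.02 and 7.43 CPM in RIPK4.si. YARS (ENSG00000134684.10) measured 118, 131 and 105 CPM in neg.si and 93.8, 101 and 89.0 CPM in RIPK4.si. In neither gene did the groups overlap, although the gap was narrow in both. The log2 fold changes were -0.43 (SE 0.195, edgeR adjusted p = 0.467) for TARSL2 and -0.32 (SE 0.147, edgeR adjusted p = 0.489) for YARS. They were -0.41 and -0.39 with neg.si replicate 3 left out.

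**Figure D3:**
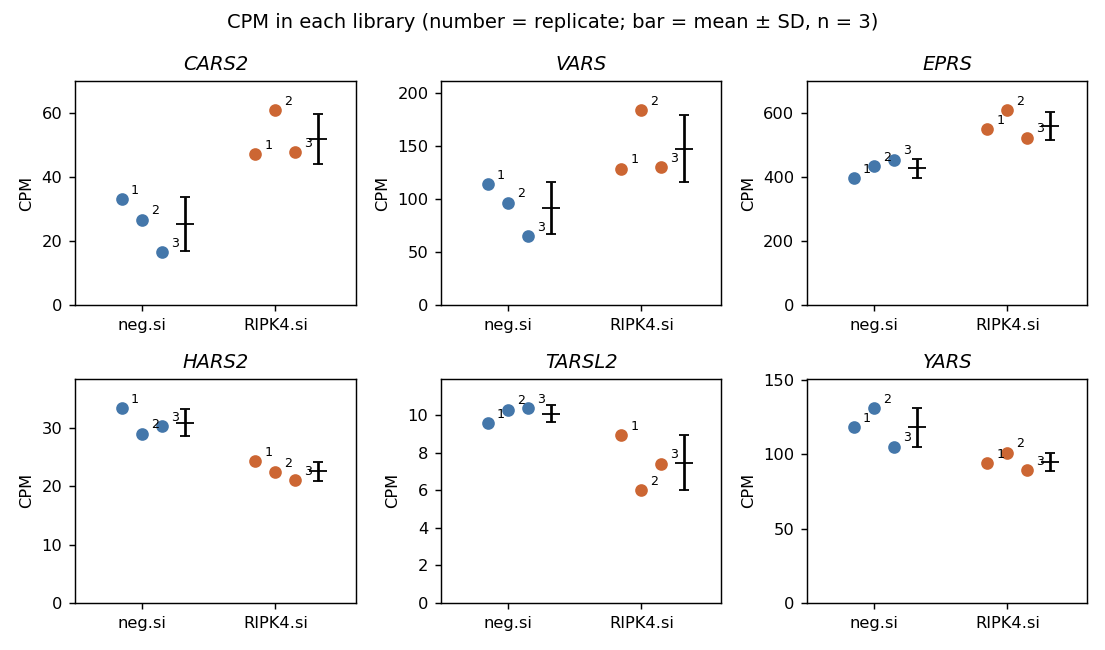
CPM of 6 synthetase genes in each library, with replicate numbers beside the points, neg.si in blue and RIPK4.si in orange, and the mean with its SD (n = 3) at the right of each group. CARS2 (47.1 to 60.9 CPM against 16.5 to 33.2), VARS and EPRS are higher in RIPK4.si, and HARS2, TARSL2 and YARS are lower, with no overlap in any of the 6.

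The remaining genes of the multisynthetase complex were IARS, KARS, RARS, MARS, QARS, DARS, LARS and the scaffold genes AIMP1 and AIMP2. With EPRS these made 10 genes, of which 8 had a log2 fold change above 0, beside 46.6% of all genes tested, and the median was 0.08. Without neg.si replicate 3 the median was 0.09. MARS (-0.02) and QARS (-0.07) were then below 0 and DARS (0.03) above it. A further scaffold gene of the complex, EEF1E1, lies outside the symbols that define the family and had overlapping groups, with a log2 fold change of 0.20 that ran from 0.00 when neg.si replicate 1 was left out to 0.57 when neg.si replicate 3 was. IARS did not overlap between groups, with 135, 155 and 158 CPM in neg.si and 165, 180 and 166 CPM in RIPK4.si. The other 8 genes overlapped, with log2 fold changes between -0.04 in AIMP2 and 0.25 in KARS. The KARS value was 0.11 without neg.si replicate 3 and ran from 0.07 to 0.39 with each library left out in turn. AIMP2 shares 29.1% of its exon bases with EIF2AK1, so its reads were counted with uncertainty.

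Among the 13 free cytosolic genes, the median log2 fold change was 0.02, and -0.06 without neg.si replicate 3. Beside VARS, TARSL2 and YARS these were AARS, CARS, FARSA and FARSB (the subunits of the phenylalanyl enzyme), GARS, HARS, NARS, SARS, TARS and WARS. NARS, for the asparaginyl enzyme, did not overlap by a margin smaller than the rounding, with 269.0, 264 and 254 CPM in neg.si and 282, 296 and 269.0 CPM in RIPK4.si (log2 fold change 0.11). The other 9 overlapped, with values between -0.14 in HARS and 0.18 in AARS, which were -0.21 and 0.07 without neg.si replicate 3.

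Of the mitochondrial genes, IARS2 also stood apart, with 327, 399 and 397 CPM in neg.si and 417, 459 and 419 CPM in RIPK4.si (log2 fold change 0.21, SE 0.15, edgeR adjusted p = 0.743, and 0.25 without neg.si replicate 3). The groups overlapped for AARS2, EARS2, FARS2, LARS2, MARS2, NARS2, PARS2, RARS2, SARS2, TARS2, WARS2 and YARS2. SARS2, for the seryl enzyme, was near 0 in every library, at 0.194, 0.533 and 0.252 CPM in neg.si and 0.613, 0.415 and 0.45 CPM in RIPK4.si. It shares 48.2% of its exon bases with another gene on the same strand, so its level is uncertain.

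Levels between genes were compared per length, as TPM, the counts per exon base scaled to the same total of 1000000 in each library. In neg.si the median was 50.4 TPM over the cytosolic genes and 13.6 TPM over the mitochondrial genes. The ratio of the class medians was 4.06, 3.63 and 3.94 in neg.si replicates 1, 2 and 3. The highest cytosolic genes were EPRS at 265 TPM (SD 42.2, n = 3) and WARS, the tryptophanyl enzyme gene, at 260.0 TPM (SD 29.6, n = 3), which did not differ beyond their spread. WARS measured 493, 604 and 429 CPM in neg.si and 394, 585 and 512 CPM in RIPK4.si, and its groups overlapped (log2 fold change -0.03, and -0.13 without neg.si replicate 3). TARSL2 was the lowest cytosolic gene at 7.45 TPM (SD 0.969, n = 3). With the length of the longest transcript WARS came first, at 417 TPM, and EPRS came at 226 TPM.

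The mitochondrial genes spread more widely. IARS2 led at 298 TPM (SD 52.6, n = 3), and SARS2 was the lowest at 0.341 TPM (SD 0.174, n = 3). In 14 of 16 pairs for the same amino acid, the mitochondrial gene was below its cytosolic partner in every library. The exceptions were IARS2, at 1350% of the IARS level in neg.si (SD 41.9, n = 3), and HARS2, at 177% of the HARS level (SD 16.0, n = 3). These shares depend on the length used. With the longest transcript IARS2 stood at 612% of IARS and HARS2 at 103% of HARS in neg.si. Per library HARS2 was then at 104%, 93.2% and 112% of HARS in neg.si and at 99.6%, 72.5% and 79.1% in RIPK4.si. CARS2 then stood at 77.2% of CARS in neg.si and between 155% and 161% in RIPK4.si, so that 13 pairs had the mitochondrial gene lower in every library.

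**Figure D4:**
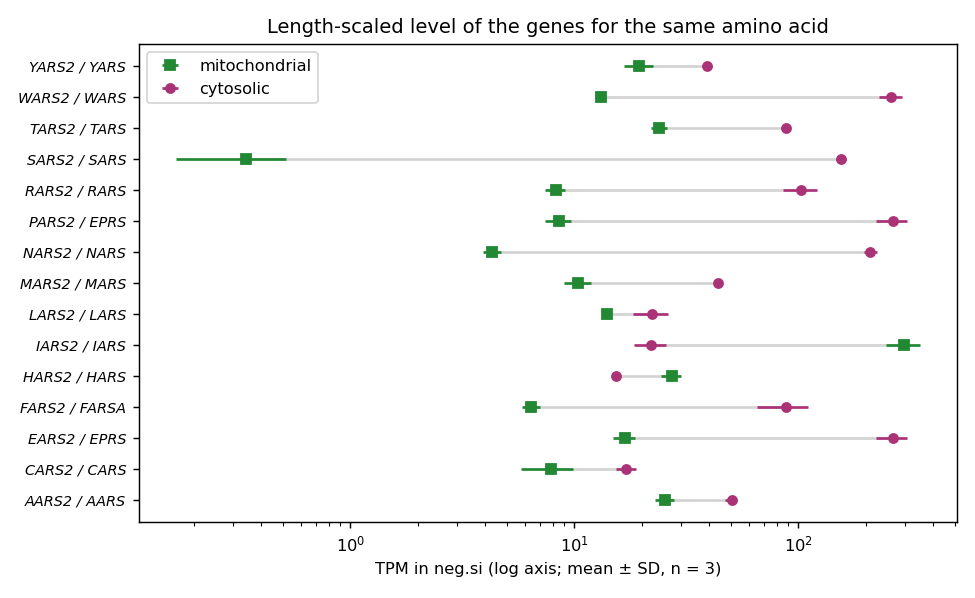
TPM in neg.si (log axis, mean and SD over 3 libraries) of the mitochondrial genes reported (squares), each with its cytosolic partner (circles) joined by a line, and EPRS shown beside both EARS2 and PARS2. The mitochondrial gene is lower in the pairs drawn except for IARS2 (298 TPM) and HARS2.

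The balance within a pair overlapped between groups for most pairs. The CARS2 level was 55.5%, 42.9% and 38.3% of the CARS level in neg.si and 92.7%, 95.1% and 91.3% in RIPK4.si. The groups lay far apart, and the 3 RIPK4.si values were close together, while CARS itself had a log2 fold change of 0.02 (SE 0.184). In 14 of the 16 pairs the groups overlapped. For single genes, the CPM of the groups did not overlap for 8.23% of all genes (higher in RIPK4.si) and 9.4% (lower). Such a share was not taken over pairs of other genes.

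**Figure D5:**
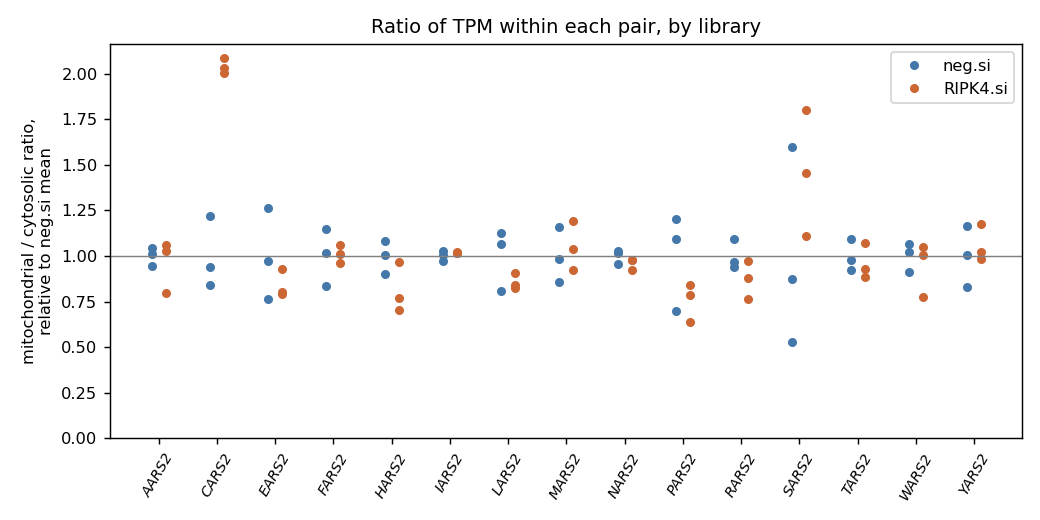
Ratio of mitochondrial to cytosolic TPM in each library for the pairs reported, divided by the neg.si mean of that pair, with neg.si in blue and RIPK4.si in orange (3 libraries each). CARS2 is the pair whose RIPK4.si libraries lie far above 1, and SARS2, which rests on few reads, is the most scattered.

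The promoters of the members were read for the C/EBP-ATF response element, the sequence by which ATF4 acts on its targets, because it ties the cytosolic genes to the amino acid response. It was searched as TTNCATCA on both strands of windows from 250 bases before to 50 bases after each start in RefSeq (GRCh38.p14). Of the 39 members 32 had a window. The letters were found in 7 of 18 cytosolic genes and 1 of 14 mitochondrial genes, where 4.46% of 27305 genes with a window had them. Windows of 30 bases around each match are shown with the matching letters in capitals, each read along the strand of its gene.
AARS: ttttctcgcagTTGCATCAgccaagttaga
CARS: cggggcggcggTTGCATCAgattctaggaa
GARS: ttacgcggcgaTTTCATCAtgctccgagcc
IARS: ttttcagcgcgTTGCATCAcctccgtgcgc
MARS: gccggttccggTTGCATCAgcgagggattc
NARS: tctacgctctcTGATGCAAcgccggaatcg
TARS: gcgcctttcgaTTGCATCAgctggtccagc
YARS2: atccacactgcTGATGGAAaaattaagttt

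On the minus strand lay the AARS window (chr16:70289675-70289704), the CARS window (chr11:3057407-3057436) and the IARS window (chr9:92293692-92293721). The NARS window (chr18:57621804-57621833) and the YARS2 window (chr12:32756076-32756105) were on the minus strand too. On the plus strand lay the GARS window (chr7:30594834-30594863), the MARS window (chr12:57488053-57488082) and the TARS window (chr5:33440956-33440985). The match began 187 bases before the start in AARS and 197 bases before it in YARS2, and in the other 6 genes it began within 33 bases of the start. A match is a description of the letters and shows no binding. The 7 cytosolic genes with a match had a median log2 fold change of 0.11, from -0.02 to 0.19, and the 11 with a window and no match had a median of 0.05, from -0.14 to 0.39. Those without a window included AARS2, DARS, LARS, TARSL2, VARS and YARS.

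The amino acid response list held ATF4, its targets and the kinase pathway above it. Of 37 genes 36 were tested and 0 had an edgeR adjusted p under 0.05, beside 0.767% of all genes. DESeq2 called 2, beside 2.91%, and the fit with the GC trend removed called 2, beside 3.27%. At an unadjusted p under 0.05, 6 were higher in RIPK4.si, beside 4.85% of all genes, and 1 was lower, beside 6.0%. The groups did not overlap for 7 genes higher in RIPK4.si, 19.4% of those tested beside 8.23% of all genes. They did not overlap for 1 lower gene, 2.78% beside 9.4%. The median log2 fold change was 0.17, and 0.16 without neg.si replicate 3. ATF4 itself measured 205, 183 and 175 CPM in neg.si and 226, 184 and 170.0 CPM in RIPK4.si, with overlapping groups (log2 fold change 0.04).

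VLDLR, a lipoprotein receptor gene, had the smallest p of that list. It measured 81.8, 86.5 and 95.4 CPM in neg.si and 55.4, 49.1 and 53.2 CPM in RIPK4.si, with every RIPK4.si library lower (log2 fold change -0.74, SE 0.142, edgeR adjusted p = 0.0562). Its adjusted p was 0.00129 by DESeq2 and 0.0405 when neg.si replicate 3 was left out (log2 fold change -0.68), and alternatives spanned 0.00129 to 0.381. STC2, which encodes a secreted glycoprotein, measured 9.36, 12.9 and 10.8 CPM in neg.si and 23.4, 15.6 and 19.2 CPM in RIPK4.si. All RIPK4.si libraries were higher (log2 fold change 0.82, SE 0.207, edgeR adjusted p = 0.134). The adjusted p of STC2 was 0.015 by DESeq2, in a range of 0.015 to 0.489, and its log2 fold change was 0.80 without neg.si replicate 3.

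The other 5 genes of the list with a small unadjusted p were higher in all RIPK4.si libraries. SLC7A5, a transporter of large neutral amino acids, measured 203, 180.0 and 115 CPM in neg.si and 205, 334 and 259 CPM in RIPK4.si. SHMT2, an enzyme gene of mitochondrial one-carbon metabolism, measured 115, 95.4 and 69.4 CPM in neg.si and 126, 171 and 126 CPM in RIPK4.si (log2 fold change 0.60, SE 0.214). MTHFD2, of the same pathway, measured 30.9, 33.6 and 30.9 CPM in neg.si and 37.2, 44.9 and 43.5 CPM in RIPK4.si (log2 fold change 0.40, SE 0.15). In each of these 3 genes the RIPK4.si libraries were the higher ones, and for SLC7A5 RIPK4.si replicate 1 stood just over neg.si replicate 1. GPT2, an alanine transaminase gene, measured 17.1, 14.7 and 11.6 CPM in neg.si and 18.3, 24.9 and 21.3 CPM in RIPK4.si (log2 fold change 0.57, SE 0.199). ASNS, for asparagine synthetase, was under 1 CPM in every library, at 0.549, 0.333 and 0.504 CPM in neg.si and 0.784, 0.9 and 0.772 CPM in RIPK4.si. ASNS shares 49.3% of its exon bases with another gene on the same strand. Their edgeR adjusted p-values ran from 0.308 for GPT2 to 0.436 for ASNS. SLC7A5 had a log2 fold change of 0.68, and 0.48 without neg.si replicate 3. Left out in the same way, SHMT2 had 0.43, MTHFD2 0.38, GPT2 0.44 and ASNS 0.89.

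The translation partners handle charged transfer RNA or make and trim transfer RNA. Of 38 genes listed 36 were in the table and 34 were tested, and EEF1G and AARSD1 were not analysed here. None had an adjusted p under 0.05 by edgeR, by DESeq2 or with the GC trend removed, and 17 log2 fold changes were above 0 and 17 below, with a median of 0.00. At an unadjusted p under 0.05, 1 gene was higher, beside 4.85% of all genes, and 3 were lower, beside 6.0%, which is near the background. Without overlap between groups, 2 genes were higher in RIPK4.si, 5.88% of those tested beside 8.23% of all genes. Likewise 5 were lower, 14.7% beside 9.4%.

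None of these genes passed the adjusted threshold. MTFMT, which formylates the initiator transfer RNA, measured 11, 12.2 and 13.4 CPM in neg.si and 8.69, 8.51 and 8.78 CPM in RIPK4.si (log2 fold change -0.50, SE 0.166, edgeR adjusted p = 0.281). GFM1, an elongation factor gene, measured 92.7, 94.9 and 98.8 CPM in neg.si and 76.3, 80.5 and 73.0 CPM in RIPK4.si (log2 fold change -0.32, SE 0.134). GATB, a subunit of the amidotransferase that makes glutaminyl transfer RNA, measured 32.8, 31.9 and 25.9 CPM in neg.si and 23.6, 25 and 21.6 CPM in RIPK4.si (log2 fold change -0.37, SE 0.162). In all 3 the groups did not overlap, as they did not for PSTK, a kinase gene of the selenocysteine pathway, at 2.03, 1.63 and 2.27 CPM in neg.si and 2.56, 3.74 and 2.73 CPM in RIPK4.si (log2 fold change 0.60). Without neg.si replicate 3 the log2 fold changes were -0.42 for MTFMT, -0.29 for GFM1, -0.46 for GATB and 0.72 for PSTK.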

How the data were processed

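RNA was measured in 6 libraries. Per the study's methods, the authors enriched poly(A) RNA and used cutadapt for trimming, TopHat for alignment (GRCh38.p13) and HTSeq for counting. Strand was ignored, so reads of overlapping genes are uncertain. The deposited count values are whole, not normalized, read pairs per gene. The deposited signal values are those counts after the authors' normalization and were not tested. The authors' comparison columns, which hold fold changes, standard errors and p-values, were not used.

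The test was the quasi-likelihood test of edgeR 4.0.16 (R 4.3.3) after TMM and filterByExpr, adjusted by Benjamini-Hochberg over all 16297 genes tested. The SE was the log2 fold change divided by the square root of F. CPM used TMM library sizes. TPM used GENCODE 44 exon lengths, found for 24416 genes. Alternatives were DESeq2 1.42.0, its size factors, upper-quartile normalization, no filter, at least 10 counts in every library, a replicate block, removal of each library's GC trend (lowess, span 0.3), each library left out, classes by the last digit of the symbol and the longest transcript as length. The fits were tested on simulated data. Python 3.11.15, numpy 2.4.6, pandas 2.3.3 and matplotlib 3.10.9 were used.

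Values per library are given for members with an unadjusted p under 0.05, for those with no overlap and at least 1.2-fold change, and for the 2 highest and 1 lowest per length in each class, and for listed genes with an unadjusted p under 0.05. IARS, NARS, HARS, CARS, KARS, AARS, AIMP2, MARS, ATF4, DDIT3 and EEF1E1 were added after their values were seen. Protein sequences were not analysed here. Some genes that meet the rule are not reported. Members and lists were chosen with earlier results of these data known.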

Additional observations from a re-analysis of the deposited data

How the results depend on the processing

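The count of all genes called was 125 with edgeR, 437 with DESeq2 and 533 with the GC trend removed, and from 0 to 295 with 1 library left out. The count of synthetase genes called was 0 with edgeR, 1 with DESeq2 and 2 with the GC trend removed. For the amino acid response it was 0, 2 and 2, and from 0 to 1 with 1 library left out. The cause was not tested. The RIPK4 log2 fold change ran from -2.06 to -1.74 with 1 library left out and lost its call in 4 of these fits, which hold fewer samples. The ratio of cytosolic to mitochondrial median TPM, taken per library and averaged over the 3 neg.si libraries, was 3.88 with exon lengths and 4.55 with the longest transcript. The cytosolic median log2 fold change was -0.01 without neg.si replicate 3. With each library left out in turn it ran from -0.014 (without RIPK4.si replicate 2) to 0.126 (without neg.si replicate 2). The mitochondrial median ran from 0.001 to 0.092, at the same 2 libraries. The replicate block gave 131 genes called and 0 synthetase genes. Correlations of deviations between same-numbered libraries were -0.242, 0.251 and 0.346, and not every library correlated best with its own number. With 3 libraries per group that also differ in GC trend, these correlations cannot decide whether the samples were paired. The sample labels state no pairing, and the main fit used none. Of 415 log2 fold changes of 32 named genes under alternatives, 8 passed the threshold where edgeR had not. A further 8 had the opposite sign after rounding to 2 decimals, where values of 0.00 were not counted, all with 1 library left out, in AIMP2, ATF4, CARS, MARS and WARS, none of them called. Few counts limit genes such as SARS2 and ASNS. The precision is that of 3 against 3 libraries throughout.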

Other observations

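Some listed genes share exon bases with other genes. TSFM, a mitochondrial elongation factor gene, was at or under 0.346 CPM in every library and shares 71.2% of its exon bases with other genes. MARS and DDIT3 overlap on opposite strands, with 39.6% of the DDIT3 exon bases shared with other genes, and had log2 fold changes of 0.07 and -0.22. Without neg.si replicate 3 these were -0.02 and -0.39, and DDIT3 had -0.03 without neg.si replicate 1.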
